A study of Mus musculus with 24 samples.

Results

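The genes described here build and load the MHC class I molecule: the classical heavy chains H2-K1 and H2-D1, the light chain B2m, the peptide transporter subunits Tap1 and Tap2, tapasin (Tapbp), the inducible catalytic subunits of the immunoproteasome Psmb8, Psmb9 and Psmb10, and Nlrc5, a transcriptional activator of class I genes. They were chosen by gene symbol, 10 of 53715 annotated genes, and all 10 were among the 11230 genes that reached a normalised read count of 50 in at least 1 of the 24 RNA sequencing libraries and were tested.

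Blood monocytes were sorted from mice of 2 genotypes on the C57BL/6 background at 8 to 10 weeks of age. N2ΔMy mice carry floxed Notch2 and Lyz2-Cre, which is active in myeloid cells and whose deletion of the gene is described as partial, while their wt littermates served as controls, and every mouse carried the Cx3cr1-GFP reporter used for sorting. Psoriasis-like skin inflammation was induced with Aldara cream, which holds 5% of the TLR7 agonist imiquimod (IMQ), at 50 mg per mouse and day; controls were given a Sham cream, and cells were sorted on day 5 as CD115+ CD11b+ GFP+ cells without surface MHC class II. The 6 groups, each of 4 libraries, were wt and N2ΔMy Ly6Chi monocytes after Sham treatment, wt and N2ΔMy Ly6Chi monocytes after IMQ, and wt and N2ΔMy Ly6Clo monocytes after IMQ, and no Ly6Clo library of Sham mice was analysed here. Replicates 1 and 2 of every group carry library numbers of one series and replicates 3 and 4 of another, here called library series 1 and 2. What the labels call replicates is not tied to single animals, so the tests measure the spread between these libraries.

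MHC class I molecules show peptides from the inside of the cell to CD8 T cells. The immunoproteasome cuts proteins into peptides, the TAP transporter carries them into the endoplasmic reticulum, and tapasin with calreticulin, calnexin and ERp57 (Pdia3) holds the empty heavy chain and light chain until a peptide fits. Interferons raise most of these genes through IRF1 and Nlrc5, and Nlrc5 acts on a conserved promoter module that contains an X2 box and a Y box.

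Of the 10 genes, 7 lie in the MHC region of chromosome 17 (GRCm38, whole gene spans): Tapbp at chr17:33915899-33929288, H2-K1 at chr17:33996017-34000333, Psmb9 at chr17:34181988-34187764, Tap1 at chr17:34187553-34197225, Psmb8 at chr17:34197721-34201454, Tap2 at chr17:34203527-34216321 and H2-D1 at chr17:35262730-35267499. Nlrc5 (chr8:94434356-94527272) and Psmb10 (chr8:105935735-105938444) lie on chromosome 8 and B2m (chr2:122147686-122153083) on chromosome 2.

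Values are read counts normalised between libraries by the authors and rounded to whole numbers, from an estimated 9537000 to 19768000 reads in genes per library. The Notch2 value lay between 7240 and 11518 in the 12 N2ΔMy libraries and between 12656 and 20005 in the 12 wt libraries, without overlap; reads of the whole gene are counted, not of the floxed part alone. The summed value of 4 Ly6Chi monocyte markers was 32085 to 54675 in Ly6Chi libraries, 404 to 1442 in wt Ly6Clo libraries and 5927 to 8471 in N2ΔMy Ly6Clo libraries, and T cell and NK cell markers summed to at most 11 and 69. Erythroid markers summed to 753, 1531, 1286 and 1543 in replicate 4 of the 4 IMQ groups and to at most 92 in their other replicates. Neutrophil markers summed to 708 to 1386 in Ly6Chi libraries of Sham mice and to 3101 to 8578 after IMQ, dendritic cell markers to 775 to 1574 and 253 to 478 respectively. Of the 8 neutrophil markers 1 to 4 were at 0 in all 4 libraries of a Ly6Chi group, and of the 5 dendritic cell markers at most 1. Mmp8 carried the neutrophil sums of Ly6Chi libraries after Sham treatment. After IMQ they were carried by Mmp8, S100a8 and S100a9, with means of 2453, 1323 and 863 in wt. Ly6g, Camp, Ltf, Ngp and Retnlg were low in every Ly6Chi group, with means of at most 4.5 after IMQ. The highest of their means was that of Retnlg in N2ΔMy Sham libraries. The part of neutrophils and dendritic cells in the results was not tested. In bulk RNA, fewer cells of a type and less RNA per cell cannot be told apart.

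The promoters of the 2 heavy chains and of B2m share an arrangement of short motifs. They are shown here because these genes encode the classical heavy chains and the light chain of class I molecules. The stretches are the 200 bases before the RefSeq start of each gene in GRCm38.p6, at chr17:34000348-34000547 on the minus strand for H2-K1, chr17:35262894-35263093 on the plus strand for H2-D1 and chr2:122147487-122147686 on the plus strand for B2m. Capitals mark, from left to right in the heavy chains, matches to the NF-κB consensus, to the core of the interferon-stimulated response element (ISRE, searched as GAANNGAAA or GAAANNGAA on both strands), and the letters TGACG and ATTGG with exactly 20 bases between them, as in the X2 and Y boxes; in B2m the ISRE core comes before the NF-κB match.
H2-K1: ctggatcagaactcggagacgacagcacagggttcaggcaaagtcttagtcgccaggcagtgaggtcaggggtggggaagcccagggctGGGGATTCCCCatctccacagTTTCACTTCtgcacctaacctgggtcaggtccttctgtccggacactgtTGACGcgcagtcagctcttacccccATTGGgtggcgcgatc
H2-D1: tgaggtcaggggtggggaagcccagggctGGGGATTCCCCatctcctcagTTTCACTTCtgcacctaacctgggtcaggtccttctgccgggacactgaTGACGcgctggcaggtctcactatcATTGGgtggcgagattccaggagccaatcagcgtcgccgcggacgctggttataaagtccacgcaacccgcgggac
B2m: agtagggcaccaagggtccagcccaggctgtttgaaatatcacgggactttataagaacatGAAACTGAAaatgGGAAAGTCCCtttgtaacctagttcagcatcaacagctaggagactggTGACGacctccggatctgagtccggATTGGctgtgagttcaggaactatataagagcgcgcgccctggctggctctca

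Aligned on the TGACG letters, 139 of 170 bases (81.8%) were identical between H2-K1 and H2-D1, against 56 of 170 (32.9%) between H2-K1 and B2m. The X2 to Y spacing was chosen after the sequences were seen. It was present in 31 of all 32851 RefSeq promoters of 300 bases (0.0944%), and besides these 3 genes it occurred in H2-M3, a non-classical class I gene, among the gene lists used here. An ISRE core was found in 14.8% of all promoters and the NF-κB consensus in 8.46%. None of these 3 patterns was found in the 300-base windows of Tapbp, Tap1, Psmb8, Psmb9 or Psmb10, and Tap2 and Nlrc5 have no entry in the table. A match is a description of letters and not of binding.

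Tap1 and Psmb9 lie head to head, and the 225 bases between their RefSeq starts (chr17:34187331-34187555, plus strand, Tap1 to the right) are shown because they lie upstream of both. Capitals mark TGACG, present in 20.8% of all promoters, and the reverse complement of ATTGG, present on either strand in 37.4%.
Psmb9 to Tap1: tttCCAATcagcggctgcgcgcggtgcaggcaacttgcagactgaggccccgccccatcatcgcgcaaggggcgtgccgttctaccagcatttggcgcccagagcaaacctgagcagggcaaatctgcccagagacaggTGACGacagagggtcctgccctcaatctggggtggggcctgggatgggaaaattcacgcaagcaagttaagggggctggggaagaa

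Per kilobase of annotated exon, B2m had the highest mean level over the 24 libraries, 22349 normalised counts per kb, followed by H2-D1 with 10409 and H2-K1 with 5089. Tapbp reached 1305, Psmb8 1077, Psmb10 553, Tap1 460, Tap2 303, Nlrc5 225 and Psmb9 160 per kb. B2m, H2-D1 and H2-K1 stood in the top 1% of tested genes, with H2-K1 at percentile 99.4 and B2m at 99.9. Psmb9 was the lowest member, at percentile 68.4. Reads that match several heavy chain genes can be shared out differently between H2-K1, H2-D1 and their H2-Q and H2-T paralogs, and Tap1 and Psmb9 overlap by 212 bases on opposite strands, so their levels are uncertain to that extent.

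Across the 6 groups, 6 of the 10 genes differed in limma's F-test (adjusted p up to 0.01), against 43% of all tested genes. The 6 were Tapbp (adjusted p = 4.52e-09), Nlrc5 (8.61e-08), H2-D1 (4.93e-07), H2-K1 (1.26e-06), Psmb10 (3.26e-05) and Tap1 (0.00114). Psmb8, Psmb9, Tap2 and B2m did not pass (adjusted p = 0.611, 0.233, 0.156 and 0.306). Nlrc5 had the widest range, 2.68-fold between its highest and lowest group mean, and Psmb8 the narrowest, 1.14-fold. Blocking on replicate number brought B2m to an adjusted p of 7.83e-05 and left the other 9 verdicts as they were.

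**Figure D1:**
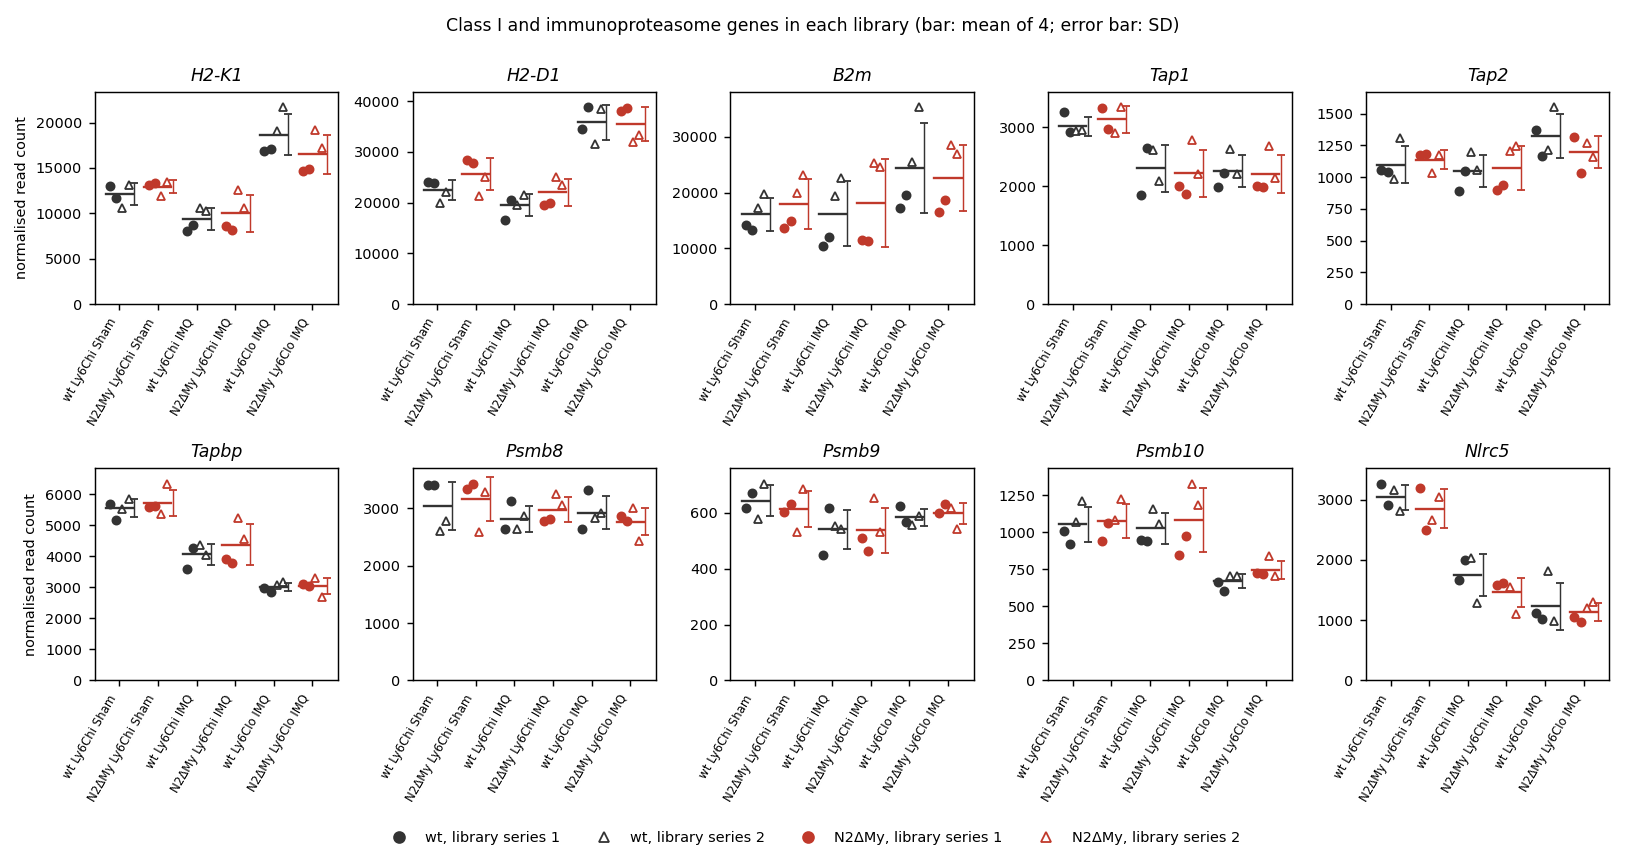
Normalised read count of the 10 genes in each of the 24 libraries (points, with filled circles for library series 1 and open triangles for series 2), with the mean of 4 and its SD by group. Nlrc5 is lower in every IMQ library than in every Sham library, H2-K1 and H2-D1 are highest in the Ly6Clo groups, and B2m is higher in series 2 than in series 1 in all 6 groups.

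The first comparison asks how IMQ treatment changed these genes in Ly6Chi monocytes, the classical subset that leaves the bone marrow. Nlrc5 fell after IMQ in both genotypes, and it was the only member called (adjusted p no higher than 0.05 and a log2 change of 0.6 or more in size). In wt Ly6Chi monocytes the normalised read count of Nlrc5 was 3260, 2911, 3164 and 2814 after Sham treatment and 1660, 2002, 2032 and 1286 after IMQ. In N2ΔMy Ly6Chi monocytes it was 3185, 2493, 2663 and 3040 after Sham treatment and 1587, 1611, 1543 and 1099 after IMQ. Every IMQ library was below every Sham library in both genotypes. On the log2 scale the change was -0.82 in wt (SE 0.137, n = 4 and 4, limma adjusted p = 0.0026) and -0.97 in N2ΔMy cells (SE 0.135, adjusted p = 0.00118). Within library series 1 and 2 it was -0.76 and -0.88 in wt and -0.82 and -1.13 in N2ΔMy cells. The neutrophil sums, carried by Mmp8, S100a8 and S100a9 after IMQ, and the dendritic cell sums given above also differed between treatments without overlap. The macrophage sums did so too, at 1886 to 2000 after Sham treatment and 2180 to 2965 after IMQ in wt. In N2ΔMy cells they were 2064 to 2421 and 3230 to 4167. Adgre1 carried these sums, while C1qa, C1qb, C1qc, Mertk and Vcam1 had means of at most 43 in every Ly6Chi group. In N2ΔMy cells the Ly6Chi monocyte sums (38307 to 46859 and 47189 to 54675) and the platelet sums (27 to 53 and 71 to 123) were also without overlap. Replicate 4, the lowest Nlrc5 library of both Ly6Chi IMQ groups, also had the highest neutrophil sum (8578 in wt and 8452 in N2ΔMy cells) and the highest erythroid sum of its group, and without that library the log2 change was -0.68 in wt and -0.84 in N2ΔMy cells.

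That is 1 of 10 members called in wt, where 9.49% of all tested genes were called, and 1 of 10 in N2ΔMy cells, where 8.7% were. When only the adjusted p counted (0.05) and no limit was set on the fold, 3 of 10 members passed in each genotype (Nlrc5, Tapbp and Tap1), against 15.6% of genes in wt and 13.7% in N2ΔMy cells. With the replicate block these were 4 of 10 in wt (with H2-K1), against 26.3%, and 3 of 10 in N2ΔMy cells, against 20.3%. The libraries of the same 3 members did not overlap between treatments in either genotype, which held for 21.5% of genes in wt and 19.5% in N2ΔMy cells. The median log2 fold change of the 10 members was -0.23 in wt and -0.21 in N2ΔMy cells, beside 0.01 over all tested genes in both. All 10 point estimates were below 0 in each genotype, from -0.82 to -0.04 in wt and from -0.97 to -0.01 in N2ΔMy cells. Within library series 2 this did not hold: B2m (0.19) and Psmb8 (0.03) were above 0 in wt, and H2-D1 (0.07), B2m (0.22), Tap2 (0.16), Psmb8 (0.12) and Psmb10 (0.13) in N2ΔMy cells.

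Tapbp, which bridges the transporter and the empty class I molecule, was lower after IMQ. Its normalised read count in wt cells was 5701, 5177, 5521 and 5843 after Sham treatment and 3593, 4276, 4359 and 4041 after IMQ. In N2ΔMy cells it was 5602, 5630, 5368 and 6342 after Sham treatment and 3921, 3782, 5241 and 4576 after IMQ. The groups did not overlap, although the highest N2ΔMy IMQ library came close to the lowest Sham library. Tapbp gave -0.45 in wt (SE 0.0839, adjusted p = 0.00455) and -0.40 in N2ΔMy cells (SE 0.111, adjusted p = 0.0402), under the fold limit for a call.

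Tap1, the transporter subunit encoded beside Psmb9, was also lower. Its normalised read count in wt cells was 3258, 2923, 2926 and 2941 after Sham treatment and 1847, 2645, 2614 and 2090 after IMQ. In N2ΔMy cells it was 3327, 2968, 2907 and 3332 after Sham treatment and 2005, 1869, 2786 and 2199 after IMQ. No library overlapped, and the log2 fold change was -0.40 in wt (SE 0.118, adjusted p = 0.0408) and -0.51 in N2ΔMy cells (SE 0.122, adjusted p = 0.0193). Without N2ΔMy Ly6Chi IMQ replicate 3, which had the highest IMQ value of that group, Tap1 was called in N2ΔMy cells at -0.63 (adjusted p = 0.0026; over all alternatives 0.0026 to 0.159), and it was called within series 1 at -0.70 and not within series 2 at -0.33.

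H2-K1 was lower by point estimate, -0.37 in wt (adjusted p = 0.0507) and -0.39 in N2ΔMy cells (adjusted p = 0.0813), and did not pass. Blocking on replicate number, its wt adjusted p was 0.0162, with the fold still under the limit (over all alternatives 0.0147 to 0.484). Its difference was larger in library series 1 (-0.56 in wt and -0.66 in N2ΔMy cells, the latter called) than in series 2 (-0.18 and -0.13). H2-D1 gave -0.20 and -0.22 (adjusted p = 0.245 and 0.309). B2m, the least precise of the 10, gave -0.05 in wt with a 95% interval of -0.57 to 0.47, and -0.06 in N2ΔMy cells with -0.72 to 0.60.

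The immunoproteasome subunits did not pass in either genotype. Psmb8 gave -0.11 in wt and -0.08 in N2ΔMy cells, Psmb9 -0.25 and -0.19, and Psmb10 -0.04 and -0.01. Their 95% intervals reached no further than -0.51 for Psmb9 in wt and 0.31 for Psmb10 in N2ΔMy cells. Tap2 gave -0.07 and -0.10. The standard subunits that these proteins replace stood higher after IMQ by point estimate: Psmb6 by 0.41 in wt (adjusted p = 0.0325) and 0.35 in N2ΔMy cells (adjusted p = 0.0392), Psmb7 by 0.45 and 0.41 (adjusted p = 0.0912 and 0.134) and Psmb5 by 0.76 and 0.29 (adjusted p = 0.0667 and 0.46), and none of the 3 was called. Blocking on replicate number, Psmb5 was called in wt (adjusted p = 0.00642). Per kb and within a library, Psmb9 was 0.532 ± 0.0756 (SD, n = 4) times Psmb6 in wt Sham cells and 0.337 ± 0.0613 after IMQ, without overlap between the groups. Psmb10 was 5.36 ± 1.11 times Psmb7 in wt Sham cells and 3.80 ± 0.624 after IMQ, where the highest IMQ library was above the lowest Sham library. In N2ΔMy cells neither ratio overlapped between treatments, with Psmb9 over Psmb6 at 0.458 ± 0.0479 and 0.316 ± 0.0412 and Psmb10 over Psmb7 at 5.11 ± 0.408 and 3.83 ± 0.403. Psmb8 over Psmb5 overlapped between treatments in both genotypes, ranging in wt from 4.36 to 12.1 after Sham treatment and from 2.72 to 4.60 after IMQ.

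**Figure D2:**
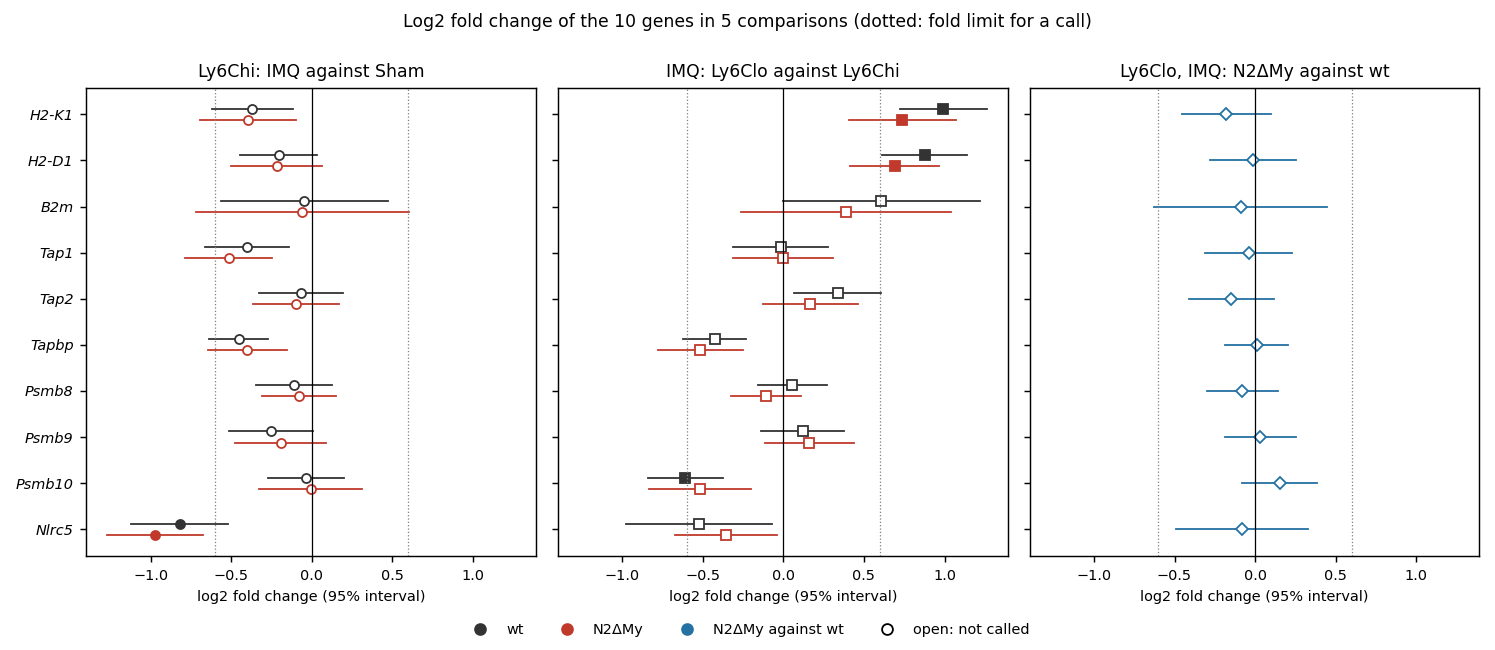
Log2 fold change of the 10 genes with its 95% interval (limma, 4 libraries a group) for IMQ against Sham in Ly6Chi monocytes, Ly6Clo against Ly6Chi monocytes after IMQ, and N2ΔMy against wt in Ly6Clo monocytes; filled symbols are called and dotted lines mark 0.6 in either direction. Nlrc5 is the only filled symbol on the left, H2-K1 and H2-D1 lie at 0.69 to 0.99 in the middle, and all 10 intervals include 0 on the right.

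The other genes of the class I pathway were taken from 6 lists of 61 genes in all, of which 55 were tested. After IMQ, 8 of the 55 were called in wt and 9 in N2ΔMy Ly6Chi monocytes, and the 8 were among the 9, with the same direction. The shares over all tested genes, 9.49% in wt and 8.7% in N2ΔMy cells, are the background of these counts. Among class I transcription regulators, 3 of 16 fell in each genotype and none rose. Stat2, which carries the type I interferon signal, fell by 1.65 on the log2 scale in wt and by 1.61 in N2ΔMy cells. Ciita, the class II counterpart of Nlrc5, fell by 1.46 and by 1.73. Among interferon receptors and kinases, 1 of 8 was called, close to the share over all genes, the feedback inhibitor Socs1, which was low throughout: its normalised read count was 18 to 40 in wt Sham libraries and 6 to 14 after IMQ.

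Among the 12 tested of 18 other class I heavy chain and class I-like genes, 4 were called in wt (3 lower, 1 higher) and 5 in N2ΔMy cells (4 lower, 1 higher). H2-T24, a gene of the T region, fell, with normalised read counts of 3558, 2835, 3016 and 3179 in wt Sham libraries and 736, 1154, 1143 and 676 after IMQ, a log2 fold change of -1.80 (adjusted p = 0.000146). The N2ΔMy value for H2-T24 was -1.85 (adjusted p = 8.62e-05). H2-T23, which encodes Qa-1, a ligand of NKG2 receptors, fell by 0.82 in wt (adjusted p = 0.00116) and by 0.75 in N2ΔMy cells (adjusted p = 0.0129), and H2-Q6 fell by 1.38 in wt and by 2.17 in N2ΔMy cells. H2-Q4 was called in N2ΔMy cells alone (-0.81, adjusted p = 0.0139), and its wt value of -0.58 (adjusted p = 0.0376) missed the fold limit; the interaction of genotype and treatment called no gene at all. The gene called higher was Hfe, a class I-like regulator of iron uptake (0.81 in wt and 0.66 in N2ΔMy cells). The median over all 12 tested genes of the list was -0.31 in wt and -0.38 in N2ΔMy cells. No gene was called among the 8 trimming, folding and loading partners, the 8 proteasome activator and assembly genes or the 3 standard catalytic subunits.

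**Figure D3:**
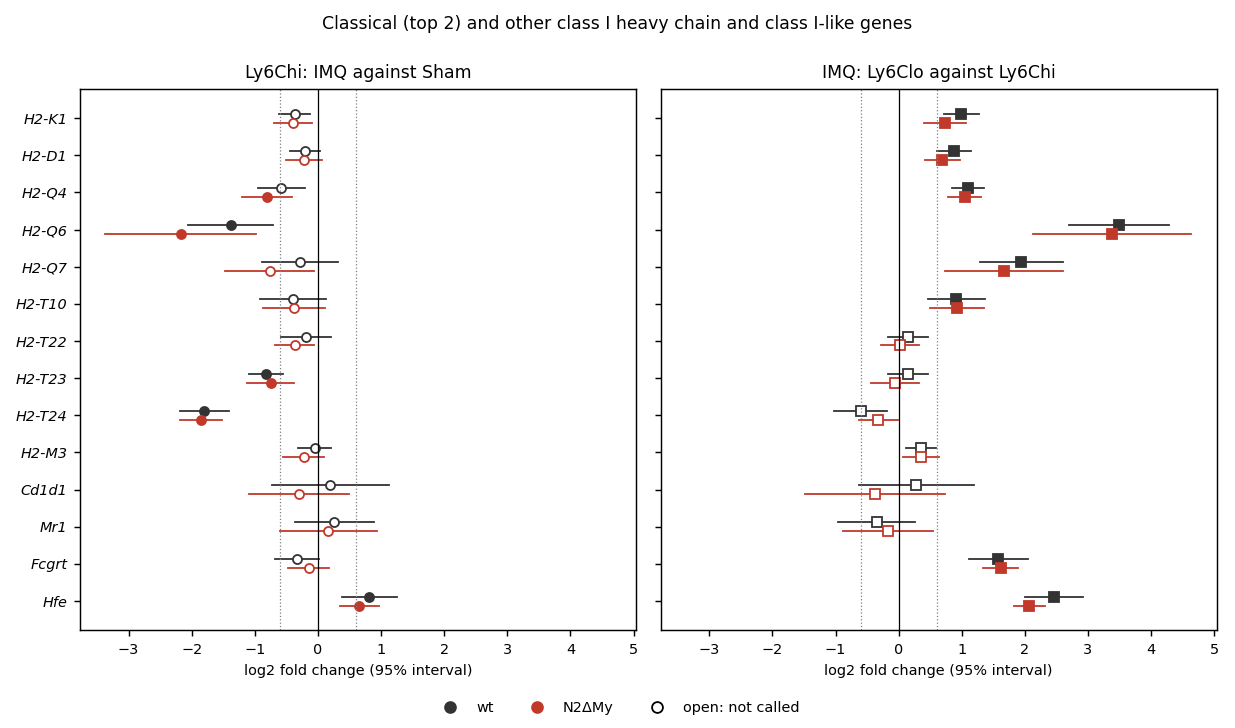
Log2 fold change with its 95% interval of H2-K1, H2-D1 and the 12 other tested class I heavy chain and class I-like genes in wt and N2ΔMy monocytes; filled symbols are called. H2-T24 lies at -1.80 and -1.85 after IMQ, while H2-Q6 lies at 3.49 and 3.38 in Ly6Clo against Ly6Chi monocytes.

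The next comparison sets Ly6Clo monocytes, the patrolling subset that derives from Ly6Chi cells, against Ly6Chi monocytes of the same IMQ-treated genotype. The IMQ Ly6Chi libraries are those already used above, so both comparisons rest on them. The heavy chains H2-K1 and H2-D1 rose in Ly6Clo monocytes in both genotypes, and Psmb10 fell in wt. In wt, 3 of 10 members were called where 24.6% of all tested genes were, and in N2ΔMy cells 2 of 10 where 17.4% were. Other markers separated the subsets without overlap in each genotype. Macrophage markers summed to 2180 to 2965 in wt Ly6Chi IMQ and 3963 to 6133 in wt Ly6Clo libraries, and to 3230 to 4167 and 7585 to 11752 in N2ΔMy libraries. Of these 6 markers Adgre1 was the highest in every group, and Vcam1 was at or near 0. In wt Ly6Chi and Ly6Clo libraries after IMQ, Adgre1 had means of 2549.5 and 5078, C1qb 33.75 and 71.75, and Mertk 19.75 and 13.5. In N2ΔMy libraries these were 3515 and 7705 for Adgre1, 43 and 1023 for C1qb, and 33.25 and 250.5 for Mertk. Neutrophil sums were 3101 to 8578 in Ly6Chi IMQ and 34 to 317 in Ly6Clo libraries. Mmp8, S100a8 and S100a9 carried the Ly6Chi sums. Camp, Ltf, Ngp and Retnlg, all low, had higher means in Ly6Clo libraries of both genotypes. For Ltf these were 4 in wt Ly6Chi IMQ and 19.25 in wt Ly6Clo libraries. The part of macrophages and neutrophils in the results was not tested. The median log2 fold change of the members was 0.09 in wt and 0.08 in N2ΔMy cells, beside -0.01 over all genes in both.

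The normalised read count of H2-K1 in wt IMQ mice was 8000, 8738, 10607 and 10238 in Ly6Chi and 16851, 17141, 19052 and 21676 in Ly6Clo monocytes. In N2ΔMy IMQ mice it was 8585, 8199, 12602 and 10561 in Ly6Chi and 14698, 14913, 19226 and 17216 in Ly6Clo monocytes. All Ly6Clo libraries were above all Ly6Chi libraries. The log2 fold change of H2-K1 was 0.99 in wt (SE 0.123, adjusted p = 0.000116) and 0.74 in N2ΔMy cells (SE 0.151, adjusted p = 0.0044). With no filter on low values the N2ΔMy adjusted p was 0.0506 and the call was lost (over all alternatives 4.21e-05 to 0.0506). Within series 1 and 2 it was 1.02 and 0.96 in wt and 0.82 and 0.66 in N2ΔMy cells.

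H2-D1 showed the same order. Its normalised read count in wt was 16621, 20488, 19566 and 21522 in Ly6Chi and 34622, 38787, 31603 and 38523 in Ly6Clo monocytes. In N2ΔMy mice it was 19518, 20026, 25098 and 23449 in Ly6Chi and 38168, 38643, 31882 and 33303 in Ly6Clo monocytes, again without overlap. Its log2 change was 0.88 in wt (SE 0.119, adjusted p = 0.000214) and 0.69 in N2ΔMy cells (SE 0.126, adjusted p = 0.00218). In N2ΔMy cells it was 0.96 within series 1 and 0.43 within series 2, the latter under the fold limit.

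B2m, which pairs with every class I heavy chain, differed between library series as well as between subsets. In wt IMQ mice its normalised read count was 10449, 12112, 19439 and 22686 in Ly6Chi and 17171, 19527, 25495 and 35269 in Ly6Clo monocytes, so the groups overlapped across series but not within one. The log2 fold change was 0.61 (SE 0.276, adjusted p = 0.112) and was not called. Blocking on replicate number gave this difference an adjusted p of 3.27e-05, so that it was called (over all alternatives 3.27e-05 to 0.404), and it was 0.70 within series 1 and 0.51 within series 2. Without wt Ly6Chi IMQ replicate 4, the highest of its group, it was called at 0.80 (adjusted p = 0.0455). In N2ΔMy mice the B2m count was 11413, 11282, 25345 and 24578 in Ly6Chi and 16478, 18636, 28487 and 26901 in Ly6Clo monocytes, a log2 fold change of 0.39 (adjusted p = 0.377, with the block 0.0327, over all alternatives 0.00356 to 0.678). The within-series values were 0.63, which was called, and 0.15 in N2ΔMy cells. B2m was higher in series 2 in all 6 groups, by 0.42 to 1.14 on the log2 scale.

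Psmb10, the subunit MECL-1, was lower in Ly6Clo monocytes. Its normalised read count in wt was 948, 939, 1158 and 1059 in Ly6Chi and 667, 602, 708 and 707 in Ly6Clo monocytes. In N2ΔMy mice it was 845, 975, 1327 and 1184 in Ly6Chi and 722, 720, 838 and 703 in Ly6Clo monocytes. No library overlapped in either genotype. Psmb10 changed by -0.61 in wt (SE 0.105, adjusted p = 0.00104), just past the fold limit, and its N2ΔMy value of -0.52 (SE 0.143, adjusted p = 0.0217) fell short of it. Leaving out wt Ly6Chi IMQ replicate 3 (-0.55), wt Ly6Chi IMQ replicate 4 (-0.59) or wt Ly6Clo IMQ replicate 2 (-0.56) took the wt value under the limit, and leaving out N2ΔMy Ly6Chi IMQ replicate 1 (-0.63) took the N2ΔMy value past it. Within series 1 and 2 the value was -0.57, under the limit, and -0.65 in wt, and -0.33 and -0.71, the latter called, in N2ΔMy cells. The interaction of genotype and subset for Psmb10 was 0.09 (adjusted p = 0.999), so a difference between the genotypes was not shown.

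Tapbp was lower again in Ly6Clo monocytes, with normalised read counts of 2987, 2843, 3086 and 3164 in wt and 3127, 3036, 3315 and 2704 in N2ΔMy mice. Every Ly6Clo library was below every Ly6Chi library of its genotype. The difference was -0.43 in wt (SE 0.0885, adjusted p = 0.00331) and -0.52 in N2ΔMy cells (SE 0.12, adjusted p = 0.00902), under the fold limit in both. In N2ΔMy cells Tapbp gave -0.32 within series 1 and -0.71 within series 2, where it was called. With no fold limit, 4 of 10 members passed in each genotype (H2-K1, H2-D1, Tapbp and Psmb10), against 35.6% of genes in wt and 24.9% in N2ΔMy cells. Blocking on replicate number raised this to 7 of 10 in wt (with B2m, Nlrc5 and Tap2), against 50.4% of genes, and to 5 of 10 in N2ΔMy cells (with B2m), against 35.3%. H2-K1, H2-D1, Tapbp and Psmb10 were the 4 members whose libraries did not overlap, which held for 35.4% of genes in wt and 27.8% in N2ΔMy cells.

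With the heavy chains higher and tapasin lower, their ratio within a library separated the subsets widely. Per kb, H2-K1 was 2.92 ± 0.276 (SD, n = 4) times Tapbp in wt Ly6Chi IMQ libraries and 7.80 ± 0.637 times in wt Ly6Clo libraries. In N2ΔMy libraries the ratio was 2.87 ± 0.139 in Ly6Chi IMQ and 6.88 ± 0.983 in Ly6Clo monocytes. The Sham Ly6Chi ratios, 2.75 ± 0.222 in wt and 2.86 ± 0.150 in N2ΔMy cells, overlapped those after IMQ. H2-D1 over Tapbp was 5.18 ± 0.575 in wt Sham Ly6Chi, 6.14 ± 0.469 in wt IMQ Ly6Chi and 15.2 ± 1.80 in wt IMQ Ly6Clo libraries. These ratios were formed after the values were seen and carry no test.

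**Figure D4:**
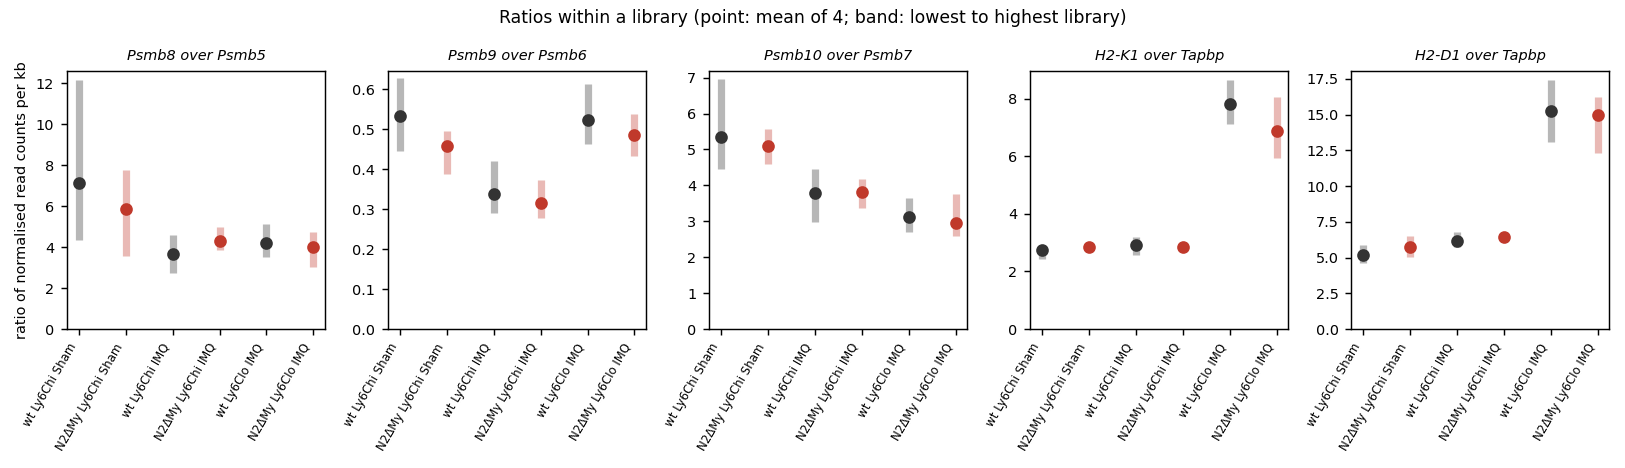
Ratio of normalised read counts per kb of exon within a library for 3 immunoproteasome subunits over their standard counterparts and for H2-K1 and H2-D1 over Tapbp, as the mean of 4 libraries (point) and the lowest to the highest library (band) in each group. H2-K1 over Tapbp is 6.88 to 7.80 in the Ly6Clo groups and 2.75 to 2.92 in the 4 Ly6Chi groups.

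Nlrc5 did not rise with the heavy chains. In wt Ly6Clo monocytes its normalised read count was 1117, 1013, 1808 and 991, and in N2ΔMy Ly6Clo monocytes 1049, 976, 1209 and 1306, overlapping the Ly6Chi IMQ libraries in each genotype. The log2 fold change against Ly6Chi IMQ cells was -0.52 in wt (adjusted p = 0.0686) and -0.36 in N2ΔMy cells (adjusted p = 0.0977). It was called in wt without wt Ly6Clo IMQ replicate 3 (-0.72, adjusted p = 0.00581) and without wt Ly6Chi IMQ replicate 4 (-0.66, adjusted p = 0.0282; over all alternatives 0.00108 to 0.574). The library wt Ly6Clo IMQ replicate 3, with 1808, also had the highest dendritic cell marker sum of its group, 525 against 80 to 142 in the other 3, the highest Ly6Chi monocyte marker sum, 1442 against 404 to 753, and the highest neutrophil sum, 302 against 34 to 214. The part of those cells in its value was not tested. Within series 1 and 2 the value was -0.78 and -0.27 in wt and -0.66 and -0.05 in N2ΔMy cells, and in both genotypes it was called within series 1.

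The remaining members did not pass between subsets without the block. Psmb8 ranged from 2435 to 3425 over all 24 libraries and gave 0.06 in wt and -0.11 in N2ΔMy cells, with 95% intervals of -0.16 to 0.27 and -0.32 to 0.11. Psmb9 gave 0.12 and 0.16, and Tap1 gave -0.02 and -0.0027 with intervals of -0.31 to 0.28 and -0.32 to 0.31. The group means of Tap1 in wt and N2ΔMy mice were 2299 and 2215 in Ly6Chi and 2259 and 2202 in Ly6Clo monocytes after IMQ. Tap2 was 0.34 higher in wt (adjusted p = 0.0523, with the block 0.0121, over all alternatives 0.0121 to 0.246) and 0.17 in N2ΔMy cells (adjusted p = 0.406).

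Among the other heavy chain and class I-like genes, 6 of 12 rose in Ly6Clo monocytes in each genotype and none fell. Over all tested genes, 24.6% were called in wt and 17.4% in N2ΔMy cells. H2-Q6 had normalised read counts of 47, 60, 127 and 48 in wt Ly6Chi IMQ and 460, 599, 837 and 1269 in wt Ly6Clo libraries, a log2 fold change of 3.49 (adjusted p = 3.24e-05). In N2ΔMy cells the H2-Q6 change was 3.38 (adjusted p = 0.0014). Hfe rose by 2.46 in wt and 2.07 in N2ΔMy cells, and H2-Q7, a Qa-2 gene, by 1.94 and 1.67.

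The chaperones of the loading complex moved the other way. Among 8 trimming, folding and loading partners, 4 were called in each genotype, 3 lower and 1 higher. The shares called over all tested genes were 24.6% in wt and 17.4% in N2ΔMy cells. Calreticulin (Calr) fell by 1.19 on the log2 scale in wt and by 0.99 in N2ΔMy cells, and Pdia3 fell by 1.16 and by 0.84. Calnexin (Canx) fell by 1.07 in wt, from 6980, 8184, 7462 and 8106 normalised counts in Ly6Chi to 3308, 3649, 3879 and 3811 in Ly6Clo libraries, and by 0.73 in N2ΔMy cells. These 3 serve glycoproteins of the endoplasmic reticulum at large, not class I alone. The partner that rose was Tpp2, a cytosolic peptidase, by 0.83 in wt and 0.78 in N2ΔMy cells.

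Of all tested genes, 24.6% were called in wt and 17.4% in N2ΔMy cells. Against that share, 3 of 16 class I transcription regulators fell in each genotype (Stat2, Irf9 and Irf8) and none rose. That is no more than the background in wt and near it in N2ΔMy cells. Stat2 was at -0.98 in wt and -0.67 in N2ΔMy cells. With the replicate block 4 of the 16 were called in wt and 3 in N2ΔMy cells. Among interferon receptors and kinases, Tyk2 fell by 1.06 in wt and by 0.86 in N2ΔMy cells while Jak2 rose by 0.70 and 0.66, 2 of 8 in each genotype. Of the 8 proteasome activator and assembly genes, the assembly chaperone Psmg4 fell in both genotypes (-1.26 and -1.09) and Psmg1 in wt (-0.91), and of the 3 standard catalytic subunits none was called. Of the 55 tested genes on these lists, 17 were called in wt and 16 in N2ΔMy cells; all 16 were among the 17, with the same direction. Those counts stand against the same 24.6% and 17.4% of all genes. The 16 made up 94.1% of the wt calls.

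The last comparisons ask whether loss of Notch2 changed these genes, with the IMQ libraries of both comparisons above. No member was called in any of them, and no member had an unadjusted limma p under 0.05. Of all 11230 tested genes, 2192 had such a p in Ly6Clo and 679 in Ly6Chi monocytes after IMQ. In Ly6Chi monocytes of Sham mice 585 had it, and in the interaction of genotype and subset 936. In Ly6Clo monocytes after IMQ, limma called 0 of 10 members where 4.78% of all tested genes were called, and the libraries of no member were separate between genotypes where 12.8% of genes were. Blocking on replicate number raised the genes called there from 537 to 939, none of them a member. The log2 fold changes of N2ΔMy against wt ran from -0.18 for H2-K1 (95% interval -0.46 to 0.10) to 0.15 for Psmb10 (-0.08 to 0.38). Between them lay H2-D1 at -0.02, B2m at -0.09, Tap1 at -0.04, Tap2 at -0.15, Psmb8 at -0.08, Psmb9 at 0.03, Nlrc5 at -0.08 and Tapbp at 0.01. The widest interval was that of B2m, -0.63 to 0.45, and that of Tapbp was -0.19 to 0.21. The smallest adjusted p was 0.488.

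In the same Ly6Clo comparison, the summed value of 6 Ly6Clo monocyte markers was 136503 to 157937 in wt and 78741 to 88459 in N2ΔMy libraries, without overlap, and the Ly6Chi and macrophage marker sums given above were higher in N2ΔMy libraries, again without overlap. By group mean the macrophage markers C1qb and Mertk were 71.8 and 13.5 in wt and 1023 and 251 in N2ΔMy Ly6Clo libraries, and their part in the results was not tested. The classical heavy chains overlapped between the genotypes. H2-K1 was 16851 to 21676 in wt and 14698 to 19226 in N2ΔMy libraries, and H2-D1 was 31603 to 38787 and 31882 to 38643. Of the 55 other pathway genes, Hfe was the only one called: its normalised read count was 7183, 7498, 6007 and 8538 in wt and 4331, 3857, 3809 and 4441 in N2ΔMy Ly6Clo libraries, and it fell by 0.82 on the log2 scale (adjusted p = 0.00206). With the block 4 of the 55 were called: Hfe, H2-Q6 (-0.83, adjusted p = 0.00213), H2-Q7 (-0.66, adjusted p = 0.00242) and Ciita (2.45, adjusted p = 0.00956). Ciita, whose unblocked adjusted p was 0.114, had N2ΔMy values of 257, 388, 2197 and 1104 against 29 to 426 in wt. In those N2ΔMy libraries dendritic cell markers summed to 292, 195, 1563 and 639, highest in the library with the highest Ciita value, and the part of those cells was not tested.

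In Ly6Chi monocytes after IMQ, 0 of 10 members were called where 0.0267% of genes (3 of 11230) were, and with the block 54 genes and no member. In Ly6Chi monocytes of Sham mice, 0 of 10 members were called where 0.0178% (2 genes) were. The member values ran from -0.25 for Nlrc5 to 0.17 for H2-D1 after IMQ, and from -0.10 for Nlrc5 to 0.18 for H2-D1 after Sham treatment. After IMQ and Sham treatment respectively, H2-K1 gave 0.08 and 0.10, B2m 0.13 and 0.14, Tap1 -0.05 and 0.06, Tap2 0.02 and 0.06, Tapbp 0.10 and 0.04, Psmb8 0.08 and 0.05, Psmb9 -0.01 and -0.07, and Psmb10 0.06 and 0.03. The interaction of genotype and subset called 0 of 10 members and 1.03% of all genes (116, and 271 with the block), with member values from -0.26 for H2-K1 to 0.17 for Nlrc5. The interaction of genotype and treatment called 0 of 10 members and 0% of all genes, though 177 genes had an unadjusted p under 0.05. For Nlrc5 that interaction was -0.15 with a 95% interval of -0.58 to 0.28.

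Over the 24 libraries the 10 genes did not follow 1 pattern. H2-K1 and H2-D1 were most alike (Pearson r = 0.88 on the log2 scale), and Tap2 and B2m were each most like H2-K1 (0.77 and 0.71). Tapbp was most like Psmb10 (0.85) and Nlrc5 (0.85), and Tap1 was most like Nlrc5 (0.81). The lowest values were -0.72 for H2-D1 with Psmb10, -0.57 for H2-D1 with Tapbp and -0.56 for H2-K1 with Psmb10, while Tap1 gave 0.12 with both H2-K1 and Tap2 and 0.09 with B2m. Psmb8 and Psmb9 followed none closely, with highest values of 0.51 and 0.61, both with Tap1. After the mean of each library series was removed, r of H2-D1 with B2m was 0.94, against 0.51 before. These correlations describe libraries that share groups and library series, and they carry no test.

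Besides the members, the genes most like the mean of the 10 standardised members were H2-T23 of the list of other heavy chains (r = 0.86), Phf11b (0.86), Lbh (0.83), Ifit1bl1 (0.83), Trim12c (0.81), RP23-205D10.4 (0.81), Phf11a (0.80) and Epsti1 (0.79). The choice of these 8 depended on the measure: 4 of them stayed among the first 8 by Spearman's rho, 4 after removal of series means, and 0 when r was taken over the 6 group means.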

How the data were processed

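The authors sequenced ribosome-depleted, stranded libraries with single reads and aligned them to GRCm38.p6 with STAR 2.5.3a after Trim Galore 0.4.4; the annotation was GENCODE M17, and the strand setting of the counting is not given in the sources used here. The deposited values are DESeq2-normalised counts rounded to whole numbers, a score here rather than raw counts, so no count model was run; they sum to 13273508 to 14651770 per library. From which low whole numbers occur, the reads in genes were estimated at 9537000 to 19768000 per library. The table also holds the authors' own comparison (mean, fold change, error, test statistic and p), which was not used. No per-sample column was left out.

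Values were analysed as log2(value + 1) with limma 3.58.1 (R 4.3.3; moderated test with trend, Benjamini-Hochberg adjustment over 11230 genes), with the libraries of the groups compared. Pseudocounts make fold changes of low genes smaller. Calls needed an adjusted p no higher than 0.05 with a log2 change of 0.6 or more in size, and 0.01 in the F-test over the 6 groups. All members are named in every comparison of 2 groups. In interactions those at the ends of the range and those whose difference between genotypes is described are named. Of other lists, called genes are named, at most 3 per list and comparison by size. Psmb5, Psmb6, Psmb7 and the remaining called genes of short lists (Hfe, Tpp2, Canx, H2-T23) were named after their values were seen. The same holds for the named genes that were called only with the block, and not all such genes are named. One called gene of the regulator list is not reported here. The 8 genes most like the members were taken by r. The members and lists were chosen with earlier results of these data known. Same-numbered libraries deviated together in all 7 comparisons of 2 groups (r = 0.16 to 0.62 for each number). The numbers were therefore treated as pairing. Within a library series r was -0.12 to 0.26, and the labels do not say what a number shares. For IMQ against Sham it was 0.0013 to 0.021 in wt and -0.12 to 0.094 in N2ΔMy cells. There 4 of 8 libraries in each genotype were most like their own number, so pairing beyond library series was not shown. For Ly6Clo against Ly6Chi cells r within a series was 0.24 to 0.25 in wt and 0.21 to 0.26 in N2ΔMy cells. The scripts were tested on simulated data. Promoters are from RefSeq (GRCm38.p6; 8 of 10 members matched). Alternatives were TMM scaling, other filters, pseudocounts and variance models, the replicate block, library series, and leaving out each library; no DESeq2 fit was made since raw counts were not used here.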

Additional observations from a re-analysis of the deposited data

Results flagged for a closer look

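Among the 60 sets of 4 libraries (10 genes in 6 groups), 5 held a library far from the other 3 by Dixon's test at 95%, where chance flags about 1 in 20. Nlrc5 was 1808 in wt Ly6Clo IMQ replicate 3 against 991 to 1117 in the others, and 1099 in N2ΔMy Ly6Chi IMQ replicate 4 against 1543 to 1611. Tap1 was 3258 in wt Ly6Chi Sham replicate 1 against 2923 to 2941. Tap2 was 1029 in N2ΔMy Ly6Chi Sham replicate 3 against 1171 to 1180. Psmb10 was 838 in N2ΔMy Ly6Clo IMQ replicate 3 against 703 to 722.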

How the results depend on the processing

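Over 90 results for single members and 1870 alternatives, 1709 kept their direction and side of the threshold, 6 lost a call, 15 gained one and none of the called values changed sign; 140 uncalled values, all within 0.25 of 0, changed sign. Called members without a filter on low values numbered 1 in N2ΔMy Ly6Clo against Ly6Chi cells, where H2-K1 had an adjusted p of 0.0506, and within library series 1 they numbered 4 there and 3 in N2ΔMy cells after IMQ. The cause of these changes was not tested.

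The replicate block, used because same-numbered libraries deviated together, left 939 genes called for genotype in Ly6Clo cells. It left 54 in Ly6Chi IMQ cells and 271 in the interaction with subset. Beyond B2m it changed no call of a member. With library series as a covariate these counts were 830, 29 and 210. Genotype calls were 215 (Ly6Clo), 8 (Ly6Chi IMQ) and 7 (Ly6Chi Sham) with no filter, where the interaction with treatment had 1. In Ly6Chi IMQ cells they were 0 without the variance trend and 15 with all 24 libraries in 1 fit. In Ly6Chi Sham cells they were 1 without the trend, with values under 1.1 set to 1.1, and within either series. Within series 2 there were 180 (Ly6Clo), 1 (Ly6Chi IMQ) and 18 (interaction with subset), and 592 genes called in wt after IMQ.

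Leaving out 1 library gave 75 (wt Ly6Chi IMQ replicate 2) to 173 genes for the interaction with subset, 0 to 4 for genotype in Ly6Chi IMQ cells (0 or 1 without any library but N2ΔMy replicate 1), 1 to 2 in Ly6Chi Sham cells (1 without any library but N2ΔMy replicate 3), and 1 to 2 members in N2ΔMy cells after IMQ. With 4 libraries a group, the printed intervals limit what the values can show. DESeq2 was not run as an alternative, since it needs raw counts.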
